A study of Drosophila melanogaster with 6 samples.

Results

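This account covers the X chromosome genes whose polyadenylated RNA changed after HP1a RNAi in Drosophila melanogaster S2 cells, a male line derived from embryos that resembles haemocytes. They were taken from the authors' deposited HP1a table as rows with values, a FlyBase gene identifier and the X as chromosome, without Nrg, lz, Aats-his and the Cyp, RpL and RpS genes. That left 70 genes of 535 listed features, of which 489 were genes. Of the names to be left out, Nrg and lz were the 2 that stood among the 72 X rows. The rule for X genes used no measured value, though it was set with earlier results of these data known. The HP1a table itself held only rows with an adjusted p below 0.05, so each of the 70 had already been called in this comparison.

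HP1a RNAi was set against GFP RNAi, in which cells received double-stranded RNA against green fluorescent protein, a sequence they do not carry. A further pair of libraries was labelled dKDM4A RNAi. Each group had 2 libraries, 6 in all, from cells kept at 25 °C with 10% serum for 5 days of RNAi by DOTAP transfection. The labels give no genotype beyond the line. Whether the libraries of 1 group are separate cultures is not stated, so each p-value reflects the spread among libraries, which may be technical.

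HP1a binds histone H3 methylated at lysine 9 and is the defining protein of fly heterochromatin, where it helps to keep repeats and nearby genes silent. It is also found at some genes in euchromatin, where its loss can raise or lower transcription. In male flies the X is in addition bound by the dosage compensation complex, made of MSL proteins and roX RNAs, which raises transcription of X genes.

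The gene encoding HP1a had 12834 and 15705 normalized counts in the HP1a RNAi libraries, against 21963 and 25507 in the GFP RNAi libraries, so 60.1% of the control level was left. In the other table, Kdm4A had 2141 and 2675 normalized counts in the libraries labelled dKDM4A RNAi and 842 and 843 in GFP RNAi, which goes against their label. In recovered reads, the median X gene held between 912 and 989.5 reads in the HP1a RNAi libraries and between 411.5 and 601.5 in the GFP RNAi libraries. The marker counts that follow stand beside 6.46% of all features tested by the authors called. Of 14 haemocyte markers 4 were listed, all higher. Their summed normalized counts were 425949 and 356035 in HP1a RNAi and 200937 and 155074 in GFP RNAi, most of it from Pxn. Of 9 germline markers 5 were listed, 4 higher and 1 lower. Their sums were 18384 and 18341 in HP1a RNAi and 15142 and 17603 in GFP RNAi, most of it from aub. Single germline markers ran from 5.06-fold higher (vas) to 1.62-fold lower (AGO3). Among 7 muscle markers only bt was listed, with 268.58 and 331.23 in HP1a RNAi and 847.76 and 932.41 in GFP RNAi. Neuronal and fat body markers had 0 of 6 and 0 of 4 members listed, and their values were not analysed here. The part of these shifts in the X results was not tested. In bulk RNA, fewer cells of a type and less RNA per cell cannot be told apart.

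Of the 70 X genes, 48 rose and 22 fell after HP1a RNAi. The median rise was 1.51-fold and the median fall 1.43-fold, measured as ratios of mean normalized counts (counts divided by a size factor per library). At least 2-fold changes were found in 20 genes, 13 higher and 7 lower. Across all features tested by the authors, 6.46% were called, 4.18% higher and 2.28% lower. Limma on log2(normalized count + 1), fitted to all 535 listed rows with Benjamini-Hochberg adjustment, called 70 of the 70 X genes, beside 98.1% of all listed rows. The HP1a RNAi and GFP RNAi libraries did not overlap in any of the 70 genes, and this held for 100% of the listed rows. The 2-fold counts stand beside 20.4% of listed features at least 2-fold higher and 6.54% at least 2-fold lower. These rows were selected on the same libraries, so the limma calls are not independent evidence.

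**Figure D1:**
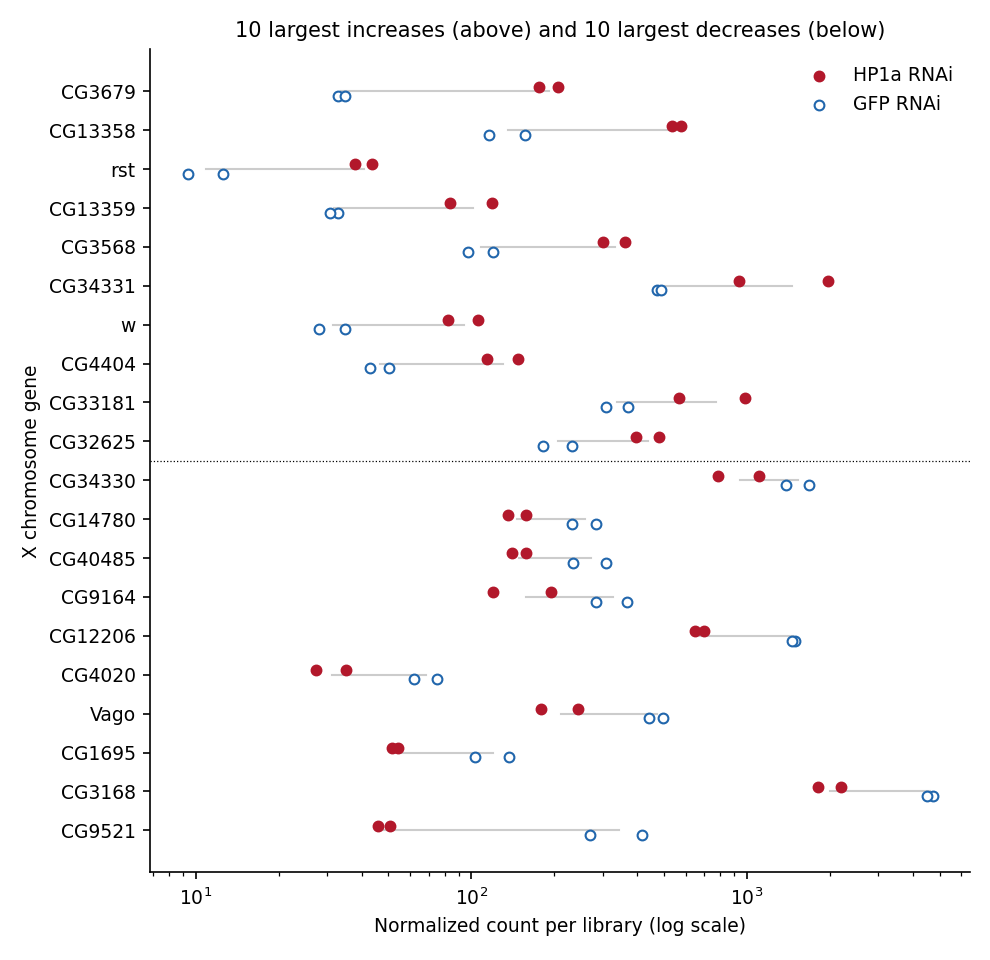
Normalized count in each library (x axis, log scale) for the 10 X genes with the largest increases and the 10 with the largest decreases (y axis), with HP1a RNAi libraries as filled red points, GFP RNAi libraries as open blue points and a grey line between the group means. CG3679 shows the widest upward gap at 5.66-fold and CG9521 the widest downward gap at 7.10-fold, and the groups do not overlap in any row.

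The largest rise was in CG3679 (FBgn0027521, X, 16303870 to 16307377, plus strand), with 176 and 207 normalized counts in HP1a RNAi and 32.8 and 34.8 in GFP RNAi. Both HP1a RNAi libraries stood far above both controls. The ratio was 5.66-fold, and the authors' deposited log2 fold change was 2.07 ± 0.23 (SE, adjusted p = 1.54e-17). Exons of CG3679 overlap those of Had1 on the same strand by 346 bases and an antisense RNA by 466 bases, and the count of CG3679 may include reads of either.

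CG13358 and CG13359 lie end to end near the tip of the X on the minus strand, from 803424 to 804921 and from 801669 to 803470, and both rose. CG13358 had 536 and 575 normalized counts in HP1a RNAi, against 157 and 116 in GFP RNAi, a 4.07-fold rise (deposited log2 fold change 1.82 ± 0.18 SE, adjusted p = 1.44e-22). CG13359 had 83.9 and 119 in HP1a RNAi, against 32.8 and 30.7 in GFP RNAi, a 3.20-fold rise. Their spans share 47 bases, so a small part of their reads may be shared.

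The low-level genes rst and w rose from few reads. rst, also called roughest, encodes an immunoglobulin-domain adhesion protein of the eye and muscle, and w, white, encodes an ABC transporter of eye pigment precursors. rst had 37.9 and 43.8 normalized counts in HP1a RNAi and 9.36 and 12.5 in GFP RNAi, the controls resting on 10 and 9 reads. w had 82.3 and 106 in HP1a RNAi and 28.1 and 34.8 in GFP RNAi. The ratios of 3.73-fold and 2.99-fold are therefore imprecise. The authors' deposited log2 fold changes were smaller than these ratios, at 1.14 ± 0.30 for rst and 1.20 ± 0.26 for w (SE, adjusted p = 0.0032 and 0.000149).

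The remaining large rises were in genes without a settled function. CG3568 had 300.0 and 362 normalized counts in HP1a RNAi, against 119.8 and 97.6 in GFP RNAi, or 3.04-fold. CG4404 had 114 and 148 in HP1a RNAi and 43.0 and 50.2 in GFP RNAi, or 2.80-fold, and CG32625 had 394 and 479 against 182 and 231 in GFP RNAi, or 2.11-fold. CG34331 stood apart for its spread, with 938 and 1972 in HP1a RNAi and 472 and 488 in GFP RNAi. Its ratio was 3.03-fold with all libraries and 1.96-fold without HP1a RNAi replicate 2. CG33181 had 567 and 981 in HP1a RNAi and 307 and 369 in GFP RNAi, a 2.29-fold rise, or 1.68-fold without HP1a RNAi replicate 2. Exons of CG33181 overlap those of otu on the other strand by 162 bases. The authors' adjusted p for these 5 genes lay between 2.83e-11 (CG3568) and 0.0016 (CG33181). The other 3 genes at least 2-fold higher were CG34323 and arg, described below by position, and CG15210, chosen with its value known, which rose 2.05-fold and lost its limma call without 1 library (adjusted p = 0.0526).

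CG9521 fell the most, and its log2 ratio of -2.83 was the lowest of all 489 listed genes. It belongs to a group of predicted glucose-methanol-choline oxidoreductases and lies inside the span of Flo2 (X, 14851005 to 14853269, minus strand). It had 50.8 and 45.7 normalized counts in HP1a RNAi, against 269 and 415 in GFP RNAi, which is 7.10-fold lower (deposited log2 fold change -2.26 ± 0.24 SE, adjusted p = 1.42e-18). The control libraries differed from each other, but both stayed far above the HP1a RNAi libraries.

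Below CG9521, 6 genes fell by at least 2-fold. CG3168 had 2200.3 and 1817 normalized counts in HP1a RNAi and 4710.4 and 4513 in GFP RNAi, or 2.30-fold lower. CG12206 had 649 and 701 in HP1a RNAi and 1489.7 and 1456 in GFP RNAi, or 2.18-fold lower, with the smallest adjusted p of all X genes (3.93e-25 in the authors' deposited table). The replicates of CG12206 lay close together, while in CG3168 HP1a RNAi replicate 2 was 0.826 times replicate 1. Vago encodes a secreted protein known from antiviral responses. It had 244 and 179 in HP1a RNAi and 498 and 442 in GFP RNAi, or 2.22-fold lower. It lies within the span of an antisense RNA gene, and all 796 of its exon bases overlap opposite-strand exons.

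The other falls of this size were in genes with lower counts. CG1695 had 54.0 and 51.4 normalized counts in HP1a RNAi, against 138 and 103 in GFP RNAi, or 2.28-fold lower. CG4020, a predicted fatty acyl-CoA reductase gene, had 27.4 and 35.2 in HP1a RNAi and 61.8 and 75.3 in GFP RNAi, or 2.19-fold lower. CG9164 had 195 and 119.9 in HP1a RNAi and 284 and 368 in GFP RNAi, or 2.07-fold lower. Its limma call was lost without GFP RNAi replicate 2 (adjusted p = 0.0519). CG40485, CG14780 and CG34330 complete the 10 largest falls at 1.82-fold, 1.76-fold and 1.62-fold lower, and CG34330 lost its limma call without replicate 2 of GFP RNAi or of HP1a RNAi (adjusted p = 0.0741 and 0.0702).

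Genes of known X-linked roles were counted by list, beside 6.46% of all tested features called. Of 27 signalling symbols, 3 were listed, 2 higher and 1 lower. PGRP-LE, a sensor of bacterial peptidoglycan, had 636 and 737 normalized counts in HP1a RNAi and 436 and 495 in GFP RNAi, or 1.47-fold higher. sog, which encodes a secreted BMP antagonist, had 854 and 1332.5 in HP1a RNAi, against 695 and 643 in GFP RNAi, or 1.63-fold higher, and with a deposited adjusted p of 0.04996 it was the last X gene inside the threshold. norpA, a phospholipase C gene best known from photoreceptors, had 3897 and 3679.7 in HP1a RNAi and 5091 and 4454 in GFP RNAi, or 1.26-fold lower. The limma calls of sog and norpA were each lost without any of 3 single libraries (highest adjusted p = 0.0995 and 0.138), and that of PGRP-LE without HP1a RNAi replicate 2 (adjusted p = 0.0562).

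Of 23 metabolism and transport symbols, 4 were listed and all 4 were higher, namely w, r, Ant2 and Gs2, beside 6.46% of all tested features called and 68.6% of the X genes higher. r, rudimentary, encodes the multienzyme protein that starts pyrimidine synthesis and had 13127 and 11573 normalized counts in HP1a RNAi, against 9590.2 and 7698 in GFP RNAi, a 1.43-fold rise. Ant2, a mitochondrial ADP/ATP carrier gene, had 522 and 645 in HP1a RNAi and 400.5 and 407 in GFP RNAi, a 1.45-fold rise, and its exons overlap same-strand exons by 102 bases and opposite-strand exons by 28, with CG15211 and sesB as the overlapping genes. Gs2, a glutamine synthetase gene, had 2271 and 1999.7 in HP1a RNAi and 1622 and 1682 in GFP RNAi, a 1.29-fold rise. The limma calls of these 3 genes were lost without 1 or more single libraries, with highest adjusted p of 0.0905 for r, 0.062 for Ant2 and 0.108 for Gs2.

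Of 21 adhesion and cytoskeleton symbols 2 were listed, beside 6.46% of all tested features called. Of these, rst rose and Moe fell. Moe encodes moesin, which links the actin cortex to the membrane, and had the highest control level of the X genes. It had 105707 and 97161 normalized counts in HP1a RNAi and 138563 and 136624 in GFP RNAi, or 1.36-fold lower (deposited log2 fold change -0.43 ± 0.08 SE, adjusted p = 8.34e-06). The limma call of Moe was lost without HP1a RNAi replicate 2 (adjusted p = 0.0591). The dosage compensation list had 0 of 12 symbols listed and the X-linked germline list 0 of 19. Among 28 symbols of X-linked transcription factors only lz was listed, which is not among the 70. These lists are short for a call rate of 6.46% over all tested features, so such counts are not read as a lack. Among 19 symbols of heterochromatin proteins, the HP1a gene itself and the lamin gene Lam were listed, both lower and neither on the X. Unlisted genes were not analysed here.

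Several further X genes have known roles, and those of this paragraph were named after their values were seen. Among the higher genes, CG2254, now Ldsdh1, a lipid droplet dehydrogenase gene, rose 1.89-fold, and the salt-inducible kinase gene Sik2 rose 1.53-fold. ec, echinus, rose 1.33-fold, and its exons share 392 bases with the roX1 RNA gene on the other strand. Arp10, a dynactin subunit gene, rose 1.29-fold, deltaCOP, a COPI coat gene, 1.18-fold, and CG9940, now Nadsyn, an NAD synthetase gene, 1.17-fold. Among the lower genes, Drak, a death-associated protein kinase gene, fell 1.32-fold, and vap, which encodes a RasGAP, 1.24-fold. Kmn1, which encodes a kinetochore protein, fell 1.21-fold and LIMK1, the kinase gene for cofilin, 1.18-fold. For deltaCOP, CG9940, vap, Kmn1 and LIMK1 the limma call did not survive the removal of any single library, and likewise for CG10802, Imp and l(1)G0193. The calls of ec and Arp10 were lost without 3 of the single libraries and that of Drak without 2 (highest adjusted p = 0.0642, 0.0827 and 0.0978). Further X genes, none with a role given here, were CG7058, CG2444, CG32801, CG42395, CG7322, CG5321 and CG2930, between 1.30-fold and 1.88-fold higher, and CG9917, 1.24-fold lower. Of these, CG9917 lost its limma call without 3 of the single libraries, and CG5321 and CG2930 without 2 each.

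The 3 X genes with the highest control levels did not change in one direction. Moe fell as given above. l(1)G0193, now orion, which encodes a secreted chemokine-like protein, had 21771 and 21647 normalized counts in HP1a RNAi and 26724 and 27178 in GFP RNAi, or 1.24-fold lower. CG4829 had 24577 and 24210 in HP1a RNAi and 17850 and 16304 in GFP RNAi, or 1.43-fold higher (deposited adjusted p = 2.87e-07). Next to sog, the genes closest to the threshold were CG5613, now ENGase, at 1.26-fold higher and CG4872 at 1.29-fold higher, with deposited adjusted p of 0.0482 and 0.0464. Their limma calls were lost without 3 and 2 of the single libraries (highest adjusted p = 0.086 and 0.112).

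**Figure D2:**
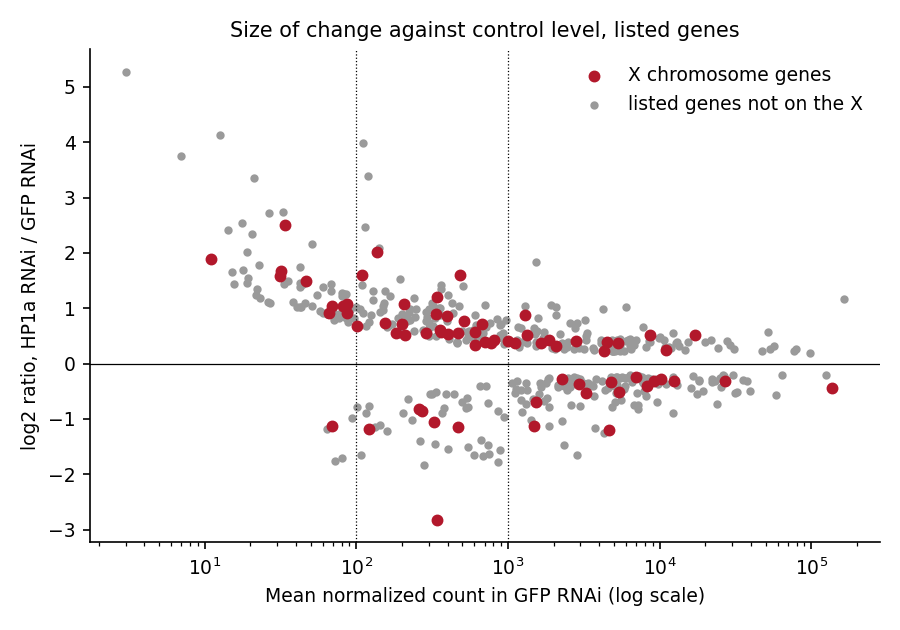
Log2 ratio of mean normalized counts, HP1a RNAi over GFP RNAi (y axis), against the GFP RNAi mean (x axis, log scale), for the 70 X genes in red and 417 listed genes not on the X in grey, with dotted lines at 100 and 1000. Of 11 X genes under 100, 10 lie above 0, and of 28 over 1000, 15 lie below 0.

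Among these rows, selected by adjusted p on the same libraries, size and direction went with the control level. Of the 11 X genes with a GFP RNAi mean under 100 normalized counts, 10 were higher, by a median of 2.43-fold, and CG4020 was lower. Between 100 and 1000, 25 were higher, by a median of 1.53-fold, and 6 lower, by a median of 2.14-fold. Over 1000, 13 were higher by a median of 1.31-fold and 15 lower by a median of 1.29-fold. Of the genes not on the X, 59 of 63 were higher in the lowest class, 92 of 130 in the middle one and 104 of 224 in the highest, and no difference from the X was tested. Spearman's rho between control level and log2 ratio was -0.58 over the 70 X genes and -0.51 over the 417 others, given as a description since the control mean enters both axes. Rows with small changes at low counts did not reach the authors' threshold and were not analysed here. With few control reads a fall has less room to reach that threshold than a rise. Direction in the lowest class is therefore not separate from the selection, and its part was not tested.

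**Figure D3:**
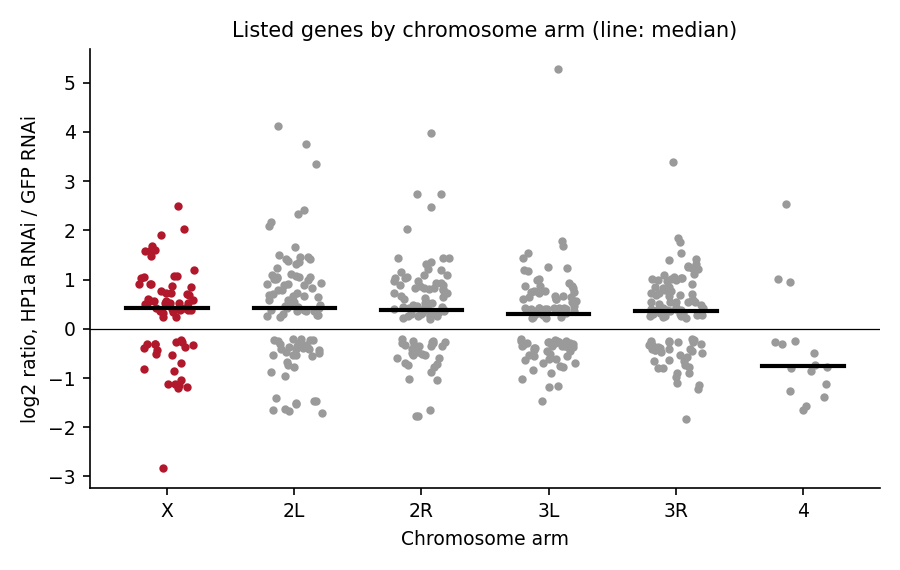
Log2 ratio of mean normalized counts, HP1a RNAi over GFP RNAi (y axis), for the 70 X genes in red and the listed genes of the other arms in grey (x axis), with a black line at the median. The X median of 0.42 lies beside medians from 0.30 to 0.42 on 2L, 2R, 3L and 3R, and chromosome 4 lies at -0.76.

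The share of higher genes and the median change on the X lay near the highest of the large autosomal arms. Of the 70 X genes 68.6% were higher, or 69.4% of all 72 X rows with a median log2 ratio of 0.45, against 61.9% on 2L, 69.0% on 2R, 56.4% on 3L and 63.0% on 3R. The listed genes made up 3.28% of the 2196 annotated protein-coding genes of the X when Nrg and lz were counted, and 3.30% of those on 2L, 2R, 3L and 3R together. The median change in size was 0.58 on the log2 scale for the X genes and 0.56 for the 399 genes of those arms. The median control level was lower on the X, at 557 normalized counts, against 1293 on the large arms. No test of these differences was made.

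**Figure D4:**
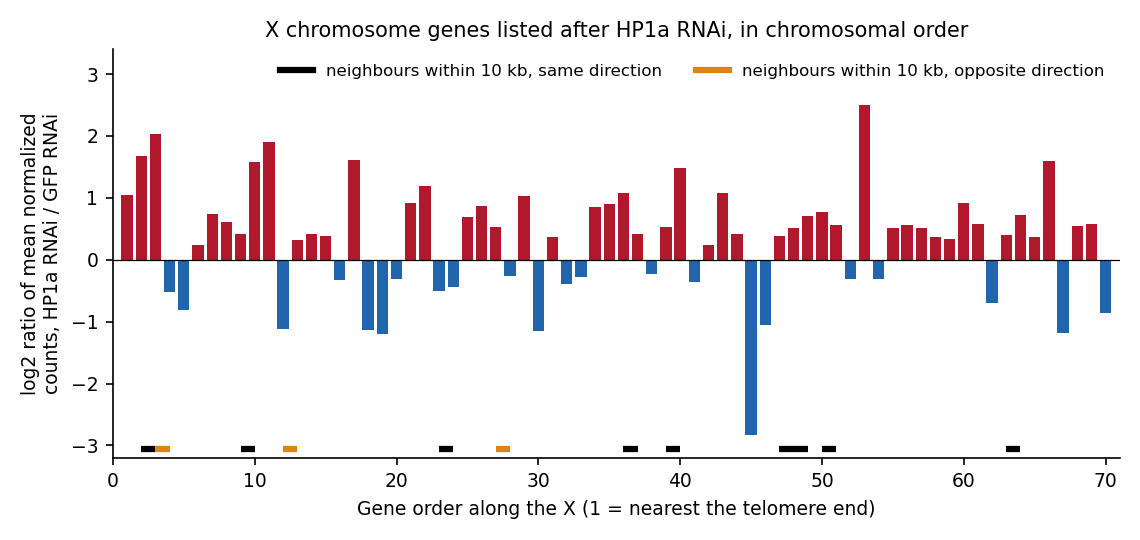
Log2 ratio of mean normalized counts, HP1a RNAi over GFP RNAi (y axis), for the 70 X genes in their order along the chromosome (x axis, 1 nearest the telomere end), with red bars for higher and blue bars for lower genes. Marks along the bottom join neighbours within 10 kb, black for the 9 pairs of equal direction and orange for the 3 of opposite direction.

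The X genes were spread over the whole chromosome. In 5 Mb steps from the telomere end, 17, 8, 20, 20 and 5 of them started in each stretch, or 3.77%, 1.63%, 4.18%, 3.45% and 2.56% of the protein-coding genes annotated there. The stretch from 5 to 10 Mb had both the fewest per annotated gene among these and the only majority of lower genes, 5 of 8. In the other stretches higher genes outnumbered lower ones, by 13 to 4, 13 to 7, 16 to 4 and 3 to 2.

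At the telomere end, arg, the arginase gene (X, 509435 to 528028), had 139.5 and 144 normalized counts in HP1a RNAi and 75.8 and 61.3 in GFP RNAi, a 2.07-fold rise. Its exons overlap those of CG4293 and elav on the other strand by 761 bases in all. The X genes next to it were the pair CG13359 and CG13358. At the other end, toward the pericentromeric heterochromatin, the last 3 X genes went both ways. CG14615 (22447183 to 22449491) had 401 and 445 in HP1a RNAi and 270.4 and 307 in GFP RNAi, or 1.47-fold higher, and its exons overlap those of CG14621 on the other strand by 626 bases. CG42346 (22832399 to 22885541) had 880.0 and 928 in HP1a RNAi and 642 and 569 in GFP RNAi, or 1.49-fold higher. CG40485, a predicted dehydrogenase gene (22960609 to 22962360), had 140.3 and 158 in HP1a RNAi and 234 and 308 in GFP RNAi, or 1.82-fold lower. These 3 genes thus include both directions.

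Of the 69 pairs of X genes next to each other in the list, 12 lay within 10 kb, or 17.4%, compared with 14.2% of 395 such pairs on the large autosomal arms. Both genes changed in the same direction in 9 of the 12 pairs, and in 40 of 56 on the autosomal arms. Since 68.6% of the X genes and 62.7% of the genes of those arms were higher, many pairs agree in direction at any distance. No test of agreement was made. By orientation, the 4 convergent pairs agreed in direction, as did 5 of 6 on the same strand, while both divergent pairs were opposed. These pairs are too few to compare orientations.

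The pairs with equal direction included genes that almost touch. w is followed by CG32795 after 31 bases on the same strand. CG32795 had 2373 and 2655 normalized counts in HP1a RNAi, against 1791 and 1958 in GFP RNAi, a 1.34-fold rise beside the 2.99-fold rise of w. CG8097 and CG9220, now Chsy, a chondroitin synthase gene, converge with 39 bases between them and rose 1.31-fold and 1.43-fold. CG9220 in turn lies 9748 bases from sog, on the same strand. CG12075 and Moe converge with 237 bases between them and fell 1.42-fold and 1.36-fold. Without HP1a RNAi replicate 2 limma no longer called CG32795, CG8097 or CG12075 (adjusted p = 0.0865, 0.0756 and 0.0619). CG32795 was also lost without GFP RNAi replicate 1, and CG8097 without either first replicate.

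Mec2, a stomatin family gene, and HP1D3csd lie on the same strand 20 bases apart, and both rose. HP1D3csd takes its name from the chromo shadow domain of the HP1 family. It had 318 and 346 normalized counts in HP1a RNAi and 172 and 230.0 in GFP RNAi, a 1.65-fold rise (deposited log2 fold change 0.66 ± 0.18 SE, adjusted p = 0.00864). Mec2 had 5552 and 6282 in HP1a RNAi and 4719.8 and 4280.2 in GFP RNAi, a 1.31-fold rise from a level far above that of its neighbour. The limma call of HP1D3csd was lost without HP1a RNAi replicate 2 (adjusted p = 0.0524), and that of Mec2 without either second replicate (highest adjusted p = 0.11).

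CG34323 and CG12721 converge with 744 bases between them. CG12721, now moon or moonshiner, is known in the ovary as a TFIIA-like factor for transcription of piRNA source loci in heterochromatin. It had 1225 and 1426 normalized counts in HP1a RNAi and 959 and 1027 in GFP RNAi, a 1.33-fold rise (deposited log2 fold change 0.40 ± 0.12 SE, adjusted p = 0.026). CG34323 had 184 and 182 in HP1a RNAi and 67.4 and 106 in GFP RNAi, a 2.11-fold rise. Limma no longer called CG12721 when replicate 1 of GFP RNAi or replicate 2 of HP1a RNAi was left out (highest adjusted p = 0.102). The last pairs of equal direction were Pde9, a cyclic nucleotide phosphodiesterase gene, with CG4404 (1.44-fold and 2.80-fold higher, 6417 bases apart), and Rhp, the rhophilin gene, with PGRP-LE (1.70-fold and 1.47-fold higher, 7520 bases apart), with 3 and 4 annotated genes between them that are not among the 70. Pde9 was lost without HP1a RNAi replicate 2 (limma adjusted p = 0.0554).

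In 3 pairs the neighbours changed in opposite directions. CG13358 rose 4.07-fold while Sec22, which encodes a SNARE of vesicle transport and starts 1154 bases away on the other strand, fell to 2403 and 2153 normalized counts in HP1a RNAi, against 3209.5 and 3349 in GFP RNAi, or 1.44-fold lower. CG12206 fell 2.18-fold and CG10802, 8440 bases away with 1 annotated gene between, rose 1.24-fold. Ant2 rose 1.45-fold and Imp, an mRNA-binding protein gene 961 bases away, fell 1.21-fold. Exons of Imp overlap those of same-strand noncoding RNA genes by 1955 bases.

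CG32795, w and rst lie within the span of kirre, a long adhesion protein gene paralogous to rst (X, 2740384 to 3134532, plus strand), and all 3 are on its opposite strand. The annotation places 21 protein-coding genes inside kirre, and kirre itself was not listed. This group was picked after its positions and values were seen.

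In annotated structure, the X genes described here were longer at the median than X genes at large. Their median span was 4570 bases, against 2521 over all 2196 protein-coding genes of the X, and their median number of exons 4.5, against 3. The median span was 3382 bases in the higher genes and 5251 in the lower ones. The 2196 genes were not limited to those detected in these cells, and the part of detection in these differences was not tested. Of the 70, 15 (21.4%) lay within the span of another gene, against 17.2% of all. Exons overlapped those of an opposite-strand gene in 16 (22.9%, against 24.0%) and those of a same-strand gene in 6 (8.57%, against 7.19%). The labels do not say whether the libraries kept strand, so values of overlapping genes may hold reads of their partner. In CG32801, as in Vago, all exon bases (937) overlap exons of an antisense RNA gene. An annotated transposable element lay inside 6 of the 70 genes (8.57%, against 8.24%) and within 1 kb of 10 (14.3%, against 16.5%), taken from the reference genome and not from S2 cells. CG42346 alone held 12 such elements, and the other genes with one inside were ec, CG42395, Drak, Kmn1 and Pde9, of which Drak and Kmn1 were lower.

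The HP1a RNAi replicates were not evenly placed in the genes that rose. In 34 of the 48 higher genes HP1a RNAi replicate 2 exceeded replicate 1, compared with 6 of the 22 lower genes. The median gap between replicates over the 70 X genes was smaller in HP1a RNAi (0.125 on the log2 scale) than in GFP RNAi (0.17). The replicates of HP1a RNAi lay more than 0.5 apart on that scale in 8 X genes, against 4 for GFP RNAi. Of the 417 listed genes not on the X, 32 and 23 did so. Among the X genes, the widest gaps follow. CG34331 differed 2.10-fold, CG33181 1.73-fold, CG10362 1.70-fold, sog 1.56-fold and Rph 1.45-fold, all with replicate 2 higher, and CG9164 in replicate 2 was 0.614 times its replicate 1 value. The first 3 of these and Rph are also among the genes listed in both tables. Leaving out 1 library moved the ratios of the 70 X genes by 1.054 times at the median. The largest move was 1.551 times, in CG34331 without HP1a RNAi replicate 2. Such moves are not given here for the other listed rows.

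**Figure D5:**
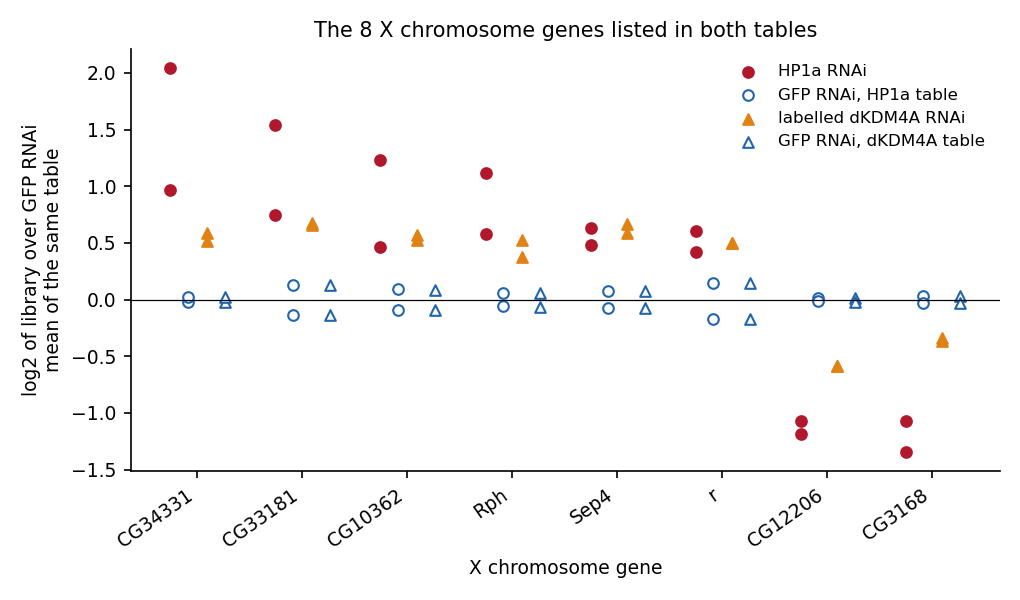
Log2 of each library's normalized count over the GFP RNAi mean of the same table (y axis) for the 8 X genes listed in both tables (x axis), with circles for the HP1a table and triangles for the dKDM4A table, filled for the RNAi and open for GFP RNAi. The highest point is HP1a RNAi replicate 2 of CG34331, and the RNAi points of CG12206 and CG3168 lie below 0 in both tables.

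Of the 70 X genes, 8 were also listed in the dKDM4A table, 6 higher and 2 lower, which is 11.4% of the X genes and 8.89% of the 90 rows of that table. Over all 535 rows of the HP1a table, 43 or 8.04% were also listed there. Of all features tested there, 1.19% were listed. Both comparisons used the same GFP RNAi libraries, normalized separately in each table, so the values are set side by side without a test. Of the 13 X rows of the dKDM4A table, the other 5 were not among the 70.

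CG34331 was 3.03-fold higher in HP1a RNAi, and in the dKDM4A table it had 582 and 612 normalized counts in the libraries labelled dKDM4A RNAi and 400.04 and 413 in GFP RNAi, or 1.47-fold higher. CG33181 was 2.29-fold higher in HP1a RNAi, and had 459 and 453 in the libraries labelled dKDM4A RNAi and 260.3 and 313 in GFP RNAi, or 1.59-fold higher. The libraries labelled dKDM4A RNAi lay close together in both genes, unlike those of HP1a RNAi. CG10362, now Pdzd8, which encodes a protein of membrane contact sites, was 1.87-fold higher after HP1a RNAi, beside a level 1.46-fold higher in the dKDM4A-labelled libraries. Rph, the rabphilin gene, had 1949 and 2831 in HP1a RNAi and 1356 and 1249 in GFP RNAi, or 1.83-fold higher, and was 1.37-fold higher in the dKDM4A-labelled libraries. The limma call of CG10362 in HP1a RNAi was lost without either GFP RNAi library or HP1a RNAi replicate 2 (highest adjusted p = 0.0869).

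r and Sep4 had ratios of like size in the tables. r was 1.43-fold higher after HP1a RNAi, beside a level 1.41-fold higher in the dKDM4A-labelled libraries, where it had 10355 and 10361 normalized counts, against 8135 and 6522 in GFP RNAi. Sep4, a septin gene, had 255 and 284 in HP1a RNAi and 173 and 192 in GFP RNAi, or 1.47-fold higher, and was 1.55-fold higher in the dKDM4A-labelled libraries. CG12206 was 2.18-fold lower in HP1a RNAi and stood at 0.666 times its GFP RNAi level in the libraries labelled dKDM4A RNAi, with 830.2 and 834 there and 1264 and 1234 in GFP RNAi. CG3168 was 2.30-fold lower in HP1a RNAi and 1.28-fold lower in the libraries labelled dKDM4A RNAi. Limma on the 90 rows called all 8 genes in the libraries labelled dKDM4A RNAi, as it did 100% of that table's rows, with adjusted p from 0.000677 (CG12206) to 0.00609 (r).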

How the data were processed

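Polyadenylated RNA was sequenced, and per the submitters' processing notes TopHat, Bowtie and DESeq2 were used, with neither version nor role. No build is named in the sources used here, but listed positions equalled the BDGP6 annotation (Ensembl release 115) for 70 of 70 genes, 67 matched by identifier and 3 by symbol. Per the file headers, the signal columns are the authors' normalized counts, scaled within each table on its own. The deposited log2 fold change, standard error, score and both kinds of p-value were taken from the authors. Every row at hand had an adjusted p under 0.05, and Benjamini-Hochberg ranks gave 8287 and 7533 tested features. Within each column, 100% of values under 400 were whole multiples of 1 read within 0.1 reads. From 153 to 193 such values per library of the HP1a table gave its reads, but the dKDM4A table had only 11 to 15. Replicates differed by more than sampling noise (chi-square per degree of freedom from 12.7 to 61.0).

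Folds are ratios of mean normalized counts. For the X genes their log2 was 1.07 times the deposited log2 fold change at the median and up to 1.66 times (rst). With R 4.3.3, limma 3.58.1 was fitted to log2(normalized count + 1) over all listed rows of a table (minimum mean 1). A fold on that scale understates changes of low genes. The fit was also run on simulated data. Most simulated rows were unchanged, unlike the selected rows here, so that run is no check of the calls given here. An exact permutation of 2 against 2 libraries cannot go below p = 0.333. The X genes and gene lists were chosen with earlier results of these data known. The naming rule took the 10 largest changes each way, genes in both tables, neighbours within 10 kb, 3 genes at each end of the X, of the control level and of the threshold, and list members. The values of 1 X gene are not reported here, though it is included in the counts. Alternatives are given at the end. Other steps used Python 3.11.15, pandas 2.3.3, numpy 2.4.6 and scipy 1.17.1, with plots from matplotlib 3.10.9.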

Additional observations from a re-analysis of the deposited data

How the results depend on the processing

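No X gene that the naming rule took changed sign under any alternative run. This was fixed beforehand, since RNAi and GFP RNAi libraries did not overlap in any of those genes. All limma fits covered only rows already selected on the same libraries, so a kept call is not independent evidence. Pseudocounts of 0.1 and 5 and no filter left 70 X genes called, beside 525 to 526 of all 535 listed rows. A mean of at least 100 left 63 of 63, beside 473 of 478 listed rows. Leaving out 1 library left between 41 (without HP1a RNAi replicate 2) and 53 (without GFP RNAi replicate 1), beside 334 to 383 of all 535 listed rows, where fewer libraries were fitted and the lone library was assumed to vary like the other group. A deposited adjusted p below 0.01 kept 46 genes, and a deposited log2 fold change of at least 1 in size kept 12. Those limits are stricter by construction, and the listed rows inside them were not counted. The fullest 2 Mb stretch held 10 genes instead of 20 in 5 Mb. With the lower level limit at 50, 5 higher genes lay under it instead of 10. Neighbours within 5 and 20 kb numbered 8 and 17. In the libraries labelled dKDM4A RNAi all 8 shared genes stayed called in each alternative, with 8 called for each library left out.

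With the replicate number as a block, 67 X genes were called, beside 513 of all 535 listed rows. Not called were deltaCOP, LIMK1 and CG9940 (limma adjusted p = 0.0514, 0.0534 and 0.0536). All 8 shared genes were called in the other table. Same-numbered libraries deviated together with a correlation of 0.24 over the 535 rows of the HP1a table. Since only 2 libraries per group share numbers, no pairing was assumed. A count test on recovered reads, planned if they could be recovered, was not run. A fitted value of 1 read gave whole numbers, but values of only a few reads were too few to fix that step by itself. Unlisted X genes were not analysed here, so shares of all expressed X genes cannot be given.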
